A study of Homo sapiens with 18 samples.

Results

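The genes described here make, store or export triglyceride: GPAM, DGAT1, DGAT2, PNPLA2, PNPLA3, PLIN2, PLIN4, CIDEB, CIDEC and MTTP. They were taken by name, and every probe whose RefSeq accession mapped to one of these 10 genes was used. Probes were found for 9 of the 10 genes, 12 probes in all among 42327 probes used, and the whole array named 19720 genes. No probe was matched to PLIN4 through the gene table used here, and no value is given for it. All 12 probes lay well above background on every array, so none of them entered the test through a single bright group.

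The cells were sorted EpCAM+ cells of Huh1 and Huh7, human hepatocellular carcinoma (HCC) lines, with drug treatment for 48 h. EpCAM is a surface protein used to mark tumor-initiating HCC cells. Each line contributed control cells, cells treated with disulfiram (DSF, 0.1 µM), a drug against alcohol dependence, and cells treated with the antimetabolite 5-FU (1 µM). There were 3 arrays per group and 18 in all, from separate experiments according to the series' design. DSF was given with copper chloride according to the methods, and what the control cells received is not described, so an effect of copper and one of DSF cannot be told apart.

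Values are log2 spot signal minus the 75th percentile of the array, called the normalized level below, and a change is a difference of 2 group means on that scale. A gene was called when limma's Benjamini-Hochberg adjusted p over 29894 tested probes was below 0.05, in a single fit of all 18 arrays. A gene with more than 1 probe is represented by its brightest probe. Shares of all probes given below are over all tested probes, which had to be well above background in 1 group or more. Each of the 9 genes counts once, by a probe well above background on every array. The counts and the shares are therefore not over like probes. Arrays of a group correlated at r between 0.989 and 0.997 over the 29894 tested probes, and 59.9% to 71.1% of probes per array were well above background. The arrays lay on 3 slides, and each 5-FU group shared its slide with its controls. Replicate 3 of Huh1 DSF lay on the slide of the Huh7 controls, and replicates 2 and 3 of Huh7 DSF lay apart on a slide scanned on another day. All 9 hepatocyte markers listed (such as ALB and HNF4A) and all 4 epithelial markers, EPCAM among them, were well above background on the 3 arrays of every group. Of the adipocyte markers, 4 of 5 were well above it on no array in 4 groups, and 3 of 5 in the others. Markers of other cell types were not all absent. Depending on the group, 3 or 4 of 5 leukocyte markers were well above background on all 3 arrays. The same held for 2 or 3 of 4 endothelial markers and 1 to 4 of 5 fibroblast or stellate markers.

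In hepatocytes, triglyceride is built by adding fatty acids in turn to a glycerol backbone at the endoplasmic reticulum. It is then either stored in lipid droplets, which are coated by perilipins and enlarged by CIDE proteins, or loaded onto apolipoprotein B for secretion as very low density lipoprotein. Patatin-like lipases release the stored fatty acids again, and a changed balance of these steps is the basis of fatty liver.

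After DSF, 6 of the 9 genes were called lower in both lines: GPAM, DGAT1, DGAT2, PNPLA3, CIDEB and MTTP. PLIN2 was called higher in both. In Huh1 6 genes were lower and 1 was higher, where 20.3% of all tested probes were called lower, 23.9% higher and 44.2% either way. In Huh7 6 were lower and 2 higher, where the shares were 19.4%, 27.3% and 46.7%. Over all tested probes 7.62% were called lower in both lines and 9.92% higher in both. The median change of the 9 genes was -0.85 in Huh1 and -0.67 in Huh7, against medians over all probes of 0.0023 and 0.083. Every DSF array was below every control array for 6 genes in each line, where 29.1% (Huh1) and 26.8% (Huh7) of all probes were separated in that direction. Every DSF array was above every control array for 1 gene in Huh1, beside 30% of all probes, and for 2 genes in Huh7, beside 33.7%. Groups separated either way made up 59.1% and 60.5% of all probes.

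After 5-FU the genes were split. GPAM, DGAT1 and the brighter PNPLA2 probe were called lower in both lines, and PNPLA3, PLIN2, CIDEB and CIDEC higher in both. The other PNPLA2 probe was called higher in both lines, so the counts of lower genes hold PNPLA2 by its brighter probe alone. Huh1 had 4 genes higher and 4 lower, where 22.2% of all probes were called higher, 26% lower and 48.2% either way. Huh7 had 4 higher and 3 lower, where the shares were 27.3%, 29.7% and 57.1%. The shares over all probes called in both lines were 13.2% higher and 15.9% lower. The medians of the 9 genes, 0.070 in Huh1 and 0.10 in Huh7, lay close to those of all probes, -0.033 and -0.048. In Huh1 all 5-FU arrays were above all control arrays for 3 genes and below them for 4, beside 25.3%, 30.8% and, either way, 56.2% of all probes. In Huh7 this held for 3 genes and 3 genes, beside 31.4%, 34.9% and 66.3%. Both drugs were set against the same control arrays in each line.

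**Figure D1:**
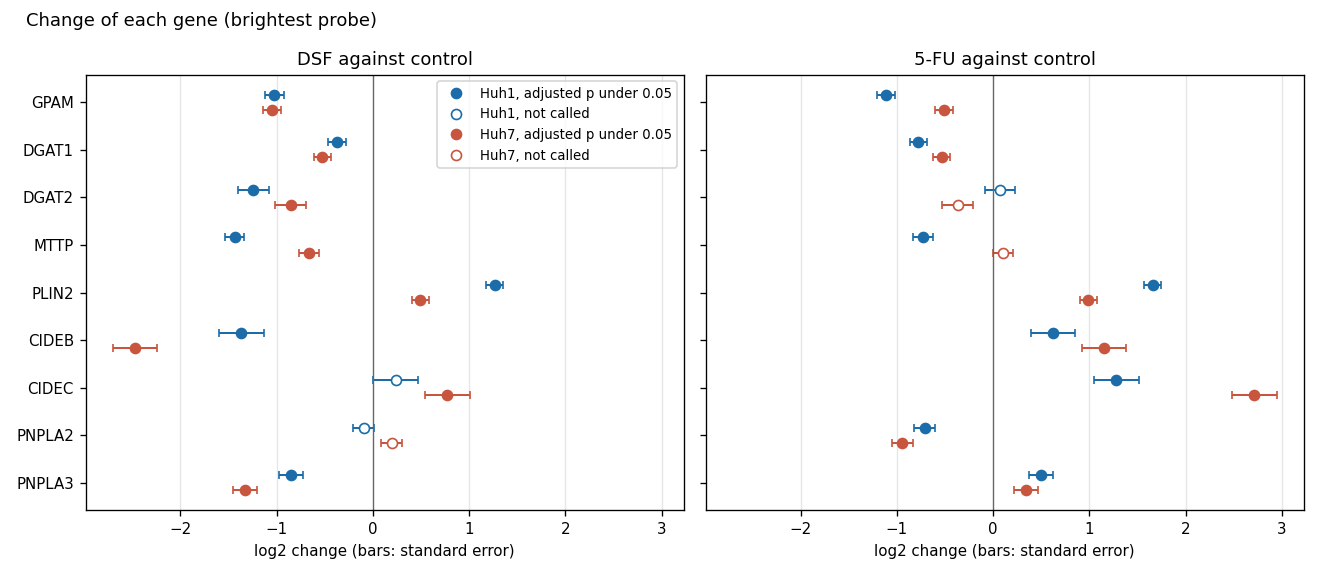
Log2 change of each gene (brightest probe) against control, for DSF on the left and 5-FU on the right, in Huh1 (blue) and Huh7 (red). Bars are standard errors and filled points have an adjusted p under 0.05. GPAM, DGAT1 and PLIN2 lie on the same side of 0 under both drugs, while CIDEB and PNPLA3 lie below 0 with DSF and above 0 with 5-FU.

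The direction of part of the 5-FU results depended on the scaling. On the 6 spike-in probes, RNA of known amount added to each sample, the 75th percentile rose by 0.83 in Huh1 and 0.99 in Huh7 after 5-FU, and by 0.13 in Huh1 after DSF, and it fell by 0.17 in Huh7 after DSF. Scaled on those probes, the median change of all probes after 5-FU was 0.79 in Huh1 and 0.94 in Huh7, with 74.7% and 76.8% of probes called higher and 1.23% and 3.46% lower. Of the 9 genes, 5 were then called higher and 1 lower in Huh1, and in Huh7 8 were higher and 0 lower. PNPLA3, PLIN2, CIDEB and CIDEC were called higher in both lines under either of these scalings. After DSF the median of all probes on this scale was 0.14 in Huh1 and -0.092 in Huh7, a move of 0.13 and -0.17 from the scaling by the 75th percentile. It left 1 gene called higher and 5 lower in Huh1, and in Huh7 0 were higher and 6 lower, while the shares of all probes above and below control were 23.7% and 8.09% for Huh1 and 10.8% and 20.5% for Huh7. Scaling by the array median left the members at 1 higher and 7 lower in Huh1 after DSF, while all probes went to 15.9% higher and 32.2% lower. The changes below are therefore relative to the bulk of the probes, and calls that ended or turned with the spike-in scaling are named.

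GPAM encodes the mitochondrial acyltransferase of the first, committed step of glycerolipid synthesis. The normalized level on the Huh1 control arrays was 1.60, 1.75 and 1.82, on the DSF arrays 0.74, 0.74 and 0.61, and on the 5-FU arrays 0.78, 0.54 and 0.50. In Huh7 it was 1.91, 1.89 and 1.90 in controls, 0.86, 0.85 and 0.85 after DSF and 1.18, 1.52 and 1.46 after 5-FU. All treated arrays were thus below all control arrays of their line. DSF lowered GPAM to nearly the same extent in both lines, by 2.03-fold in Huh1 (log2 change -1.02, SE 0.094, adjusted p 1.1e-06) and 2.07-fold in Huh7 (-1.05, adjusted p 9.3e-07). The difference between the lines was -0.03 (95% interval -0.31 to 0.26). 5-FU lowered it by 2.17-fold in Huh1 (-1.12, adjusted p 5.3e-07) and 1.43-fold in Huh7 (-0.51, adjusted p 3.1e-04). Here the lines differed by 0.60 (adjusted p 0.0027). With the spike-in scaling the 5-FU change in Huh7 turned to 0.47 (adjusted p 0.0019), which is still below the median of all probes.

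Promoter sequence is shown for 4 genes that moved in the same direction in both lines with DSF, GPAM, MTTP and CIDEB as genes that fell and PLIN2 as the gene that rose. Each is the 250 bases before a RefSeq start site on assembly GRCh38.p14, read 5′ to 3′ along the gene, with -1 as the base before the start. Capitals mark matches on either strand to any of 5 motifs. The nuclear receptor core AGGTCA was in 12.1% of 35116 such windows. The E-box CACGTG was in 6.34% of them. An HNF4 type motif, CAAAGTCCA, was in 0.325%. A sterol response type motif, TCACNCCAC, was in 0.883%. The TATA box TATAAA was in 10.7%. For GPAM the window is chr10:112183766-112184015, minus strand, and it holds none of them.
GPAM: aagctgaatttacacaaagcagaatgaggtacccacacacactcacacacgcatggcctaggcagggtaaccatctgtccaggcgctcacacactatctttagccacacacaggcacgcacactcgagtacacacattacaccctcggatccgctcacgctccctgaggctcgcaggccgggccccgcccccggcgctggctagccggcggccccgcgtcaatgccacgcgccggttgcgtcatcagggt

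DGAT1 and DGAT2 encode the unrelated acyltransferases that finish triglyceride from diacylglycerol. The brighter DGAT1 probe read 2.04, 1.87 and 1.81 on the Huh1 control arrays, 1.50, 1.57 and 1.53 after DSF and 1.28, 1.06 and 1.05 after 5-FU. On the Huh7 arrays it read 2.80, 2.82 and 2.76 in controls, 2.28, 2.27 and 2.25 after DSF and 2.48, 2.16 and 2.12 after 5-FU. Treated and control arrays did not overlap in any of these. The changes were modest: -0.37 with DSF in Huh1 (SE 0.092, adjusted p 0.0045), -0.53 with DSF in Huh7 (adjusted p 3.6e-04), -0.78 with 5-FU in Huh1 (adjusted p 1.1e-05) and -0.53 with 5-FU in Huh7 (adjusted p 1.8e-04). Under the spike-in scaling the DSF call in Huh1 was lost (-0.24, adjusted p 0.29), and the 5-FU changes turned to 0.050 and 0.45. The dimmer DGAT1 probe passed no drug comparison, with changes from -0.38 (DSF in Huh1, adjusted p 0.077) to -0.05 (5-FU in Huh7, adjusted p 0.83), so the fall of DGAT1 rests on 1 of its 2 probes. Its DSF value in Huh1 passed the test only when Huh1 control replicate 2 was left out (-0.54, adjusted p 0.020) or with median scaling (-0.56), and the mean of both probes was not called for 5-FU in Huh7 (-0.29, adjusted p 0.055).

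DGAT2 responded to DSF. Its level was 1.22, 1.01 and 0.91 on the Huh1 control arrays and -0.19, -0.21 and -0.19 after DSF, a 2.37-fold fall (log2 change -1.24, SE 0.16, adjusted p 2.2e-05). In Huh7 it went from 0.12, 0.04 and 0.09 to -0.75, -0.79 and -0.78, a 1.81-fold fall (-0.85, adjusted p 5.8e-04). The 3 DSF arrays of each line lay close together and below all controls. 5-FU arrays overlapped the controls, with levels of 1.46, 0.93 and 0.96 in Huh1 (change 0.07, 95% interval -0.27 to 0.41) and -0.41, 0.13 and -0.57 in Huh7 (-0.37, adjusted p 0.062). The Huh7 value passed the test when replicate 2 of 5-FU was left out (-0.57, adjusted p 0.0025), with normexp background correction (-0.34, adjusted p 0.045) and with a filter that keeps only probes well above background on all 18 arrays (adjusted p 0.049). With the spike-in scaling the 5-FU changes were 0.90 in Huh1 (adjusted p 2.9e-04) and 0.62 in Huh7 (adjusted p 0.0044), both called.

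PNPLA2 encodes adipose triglyceride lipase, the enzyme that takes the first fatty acid from stored triglyceride, and PNPLA3 a lipid droplet relative whose common coding variant is linked to fatty liver. The brighter PNPLA2 probe read 2.73, 2.79 and 2.90 in Huh1 controls, 2.62, 2.70 and 2.81 after DSF and 2.09, 2.08 and 2.12 after 5-FU. In Huh7 it read 3.16, 3.00 and 2.97 in controls, 2.98, 3.46 and 3.27 after DSF and 1.94, 2.20 and 2.15 after 5-FU. The DSF arrays overlapped the controls in both lines, with changes of -0.09 (95% interval -0.33 to 0.14) in Huh1 and 0.19 (-0.04 to 0.43) in Huh7. The Huh1 change was called lower with median scaling (-0.27, adjusted p 0.031), and the Huh7 change was called higher without Huh7 DSF replicate 1 (0.32, adjusted p 0.012). 5-FU lowered this probe by 1.64-fold in Huh1 (-0.71, SE 0.11, adjusted p 9.5e-05) and 1.92-fold in Huh7 (-0.94, adjusted p 3.8e-06), with no overlap. With the spike-in scaling the 5-FU changes were 0.11 and 0.042 and were not called.

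The other PNPLA2 probe did not follow the first. It rose with DSF in Huh1 from 0.20 to 0.31 on the controls to 0.76 to 1.04 (change 0.63, adjusted p 9e-05) and fell in Huh7 from -0.15 to -0.11 to between -0.83 and -0.68 (-0.61, adjusted p 1.4e-04). After 5-FU it rose by 0.85 in Huh1 (adjusted p 6.8e-06) and by 0.26 in Huh7 (adjusted p 0.033), a call that was lost without any 1 of the Huh7 control arrays or replicate 1 or 2 of Huh7 5-FU (0.20 to 0.27). On this probe the lines differed in their DSF change by -1.24 (Huh7 less Huh1, adjusted p 9e-06), against 0.29 (adjusted p 0.15) on the brighter one. The mean of both probes gave 0.27 in Huh1 and -0.21 in Huh7 for DSF and 0.067 in Huh1 for 5-FU, so no direction is given for PNPLA2 as a gene.

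PNPLA3 moved in opposite directions with the drugs. Its level was 2.01, 2.02 and 2.14 in Huh1 controls, 1.26, 1.30 and 1.07 after DSF and 2.72, 2.49 and 2.47 after 5-FU. In Huh7 it was 3.93, 3.98 and 3.94 in controls, 2.69, 2.59 and 2.58 after DSF and 3.97, 4.29 and 4.61 after 5-FU. DSF arrays were below all other arrays of their line. The fall was 1.80-fold in Huh1 (-0.85, SE 0.12, adjusted p 7.6e-05) and 2.51-fold in Huh7 (-1.33, adjusted p 1.5e-06). 5-FU raised it by 1.42-fold in Huh1 (0.50, adjusted p 0.0042) and 1.27-fold in Huh7 (0.34, adjusted p 0.029). In Huh7 the lowest 5-FU array lay among the controls. That Huh7 call was lost without replicate 2 or 3 of 5-FU or any 1 of the 3 control arrays (changes 0.19 to 0.36), and in a fit of the Huh7 arrays alone (adjusted p 0.073). Directly compared, DSF arrays were 2.55-fold below 5-FU arrays in Huh1 (-1.35, adjusted p 1e-06) and 3.19-fold below in Huh7 (-1.67, adjusted p 6.1e-08).

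PLIN2 encodes the perilipin that coats most lipid droplets of hepatocytes, and its protein is a common measure of droplet content. The level was 1.41, 1.43 and 1.33 in Huh1 controls, 2.63, 2.61 and 2.73 after DSF and 2.80, 3.16 and 3.19 after 5-FU. In Huh7 it was 2.04, 2.04 and 2.03 in controls, 2.58, 2.51 and 2.49 after DSF and 3.05, 3.11 and 2.92 after 5-FU. Every treated array was above every control array, and the order control, DSF, 5-FU held without overlap in each line. DSF raised PLIN2 by 2.40-fold in Huh1 (1.27, SE 0.089, adjusted p 9e-08) and 1.40-fold in Huh7 (0.49, adjusted p 4.6e-04). 5-FU raised it by 3.15-fold in Huh1 (1.66, adjusted p 1.6e-08) and 1.99-fold in Huh7 (0.99, adjusted p 3.3e-07). The rise was smaller in Huh7 with both drugs, by 0.78 for DSF (adjusted p 2.6e-04) and 0.67 for 5-FU (adjusted p 8.8e-04). With the spike-in scaling the DSF rise in Huh7 was 0.32 and not called (adjusted p 0.14).

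The PLIN2 window lies at chr9:19127493-19127742, minus strand, with the E-box CACGTG at -69 and a TATA box match on the opposite strand at -29.
PLIN2: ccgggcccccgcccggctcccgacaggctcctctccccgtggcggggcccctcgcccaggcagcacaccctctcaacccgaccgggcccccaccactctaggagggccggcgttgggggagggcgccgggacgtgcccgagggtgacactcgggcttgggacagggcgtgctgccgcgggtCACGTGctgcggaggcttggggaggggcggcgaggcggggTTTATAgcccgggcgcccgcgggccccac

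CIDEB and CIDEC belong to the CIDE family, which enlarges lipid droplets by moving lipid between them, and CIDEB also takes part in the lipidation of very low density lipoprotein in liver. CIDEB had the widest range of group means among the 9 genes, 4.74. Its level was 0.89, 0.07 and -0.12 in Huh1 controls, -1.11, -1.12 and -1.03 after DSF and 1.26, 0.68 and 0.77 after 5-FU. In Huh7 it was -1.35, -1.39 and -1.34 in controls, -3.56, -4.15 and -3.80 after DSF and -0.33, 0.08 and -0.38 after 5-FU. The DSF arrays were the lowest of each line. The fall was 2.58-fold in Huh1 (-1.37, SE 0.23, adjusted p 2.4e-04) and 5.55-fold in Huh7 (-2.47, adjusted p 1.4e-06), the largest DSF change of the 9 genes in Huh7. The excess in Huh7, -1.11 (adjusted p 0.015), was not called with normexp background correction (-0.70, adjusted p 0.061) or with the slide as a block (-0.80, adjusted p 0.19).

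5-FU raised CIDEB by 2.22-fold in Huh7 (1.15, adjusted p 6.3e-04), with all 5-FU arrays above all controls. The Huh1 arrays overlapped (0.62, adjusted p 0.038), since Huh1 control replicate 1 stood above the other controls. That call was lost without Huh1 control replicate 2 or 3 or Huh1 5-FU replicate 1 or 3 (0.43 to 0.69), with quantile normalization (adjusted p 0.053) and in a fit of the Huh1 arrays alone (adjusted p 0.085), and without control replicate 1 the change was 0.93 (adjusted p 0.0014). Set directly against each other, DSF arrays were 3.97-fold below 5-FU arrays in Huh1 (-1.99, adjusted p 8.2e-06) and 12.3-fold below in Huh7 (-3.63, adjusted p 1.3e-08).

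The CIDEB window at chr14:24307978-24308227, minus strand, holds the HNF4 type motif at -55, on the opposite strand. The window of the other listed start holds none of the 5 motifs.
CIDEB: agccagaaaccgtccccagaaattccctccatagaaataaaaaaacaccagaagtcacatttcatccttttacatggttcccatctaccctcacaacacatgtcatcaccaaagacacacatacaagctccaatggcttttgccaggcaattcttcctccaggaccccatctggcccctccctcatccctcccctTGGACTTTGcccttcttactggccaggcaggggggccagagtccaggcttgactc

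CIDEC rose with 5-FU. The brighter probe read 5.18, 4.07 and 3.95 in Huh1 controls, 4.64, 4.67 and 4.60 after DSF and 5.47, 5.76 and 5.81 after 5-FU. In Huh7 it read 0.95, 0.94 and 1.03 in controls, 1.75, 1.71 and 1.78 after DSF and 3.48, 3.93 and 3.65 after 5-FU. The order of group means, from the top, was Huh1 5-FU, Huh1 DSF, Huh1 control, Huh7 5-FU, Huh7 DSF and Huh7 control, and Huh1 DSF and Huh1 control overlapped. The rise with 5-FU was 2.43-fold in Huh1 (1.28, SE 0.23, adjusted p 4.2e-04) and 6.56-fold in Huh7 (2.71, adjusted p 2.2e-07). The dimmer probe gave 1.29 and 2.30. The lines differed by 1.43 (adjusted p 0.0036) on the brighter probe and 1.01 (adjusted p 0.025) on the other.

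With DSF the brighter CIDEC probe rose 1.71-fold in Huh7 (0.77, adjusted p 0.015), without overlap, and the dimmer one gave 0.51 (adjusted p 0.084). The Huh7 call ended with the spike-in scaling (0.60, adjusted p 0.066) and with the slide as a block (0.77, adjusted p 0.13). In Huh1 the DSF change was 0.24 (adjusted p 0.44), and it became 0.63 (adjusted p 8.3e-04) without Huh1 control replicate 1, the control that stood above the others. The dimmer probe behaved likewise, with 0.26 and 0.64.

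MTTP encodes the microsomal transfer protein that loads triglyceride onto apolipoprotein B. The level was 3.63, 3.50 and 3.51 in Huh1 controls, 2.18, 2.10 and 2.05 after DSF and 3.11, 2.67 and 2.67 after 5-FU. In Huh7 it was 4.55, 4.56 and 4.61 in controls, 3.89, 3.90 and 3.93 after DSF and 4.68, 4.79 and 4.54 after 5-FU. The 3 Huh1 groups did not overlap, and in Huh7 the DSF arrays lay apart below the other groups. DSF lowered MTTP by 2.71-fold in Huh1 (-1.44, SE 0.10, adjusted p 9.9e-08), the largest fall of the 9 genes in that line, and by 1.59-fold in Huh7 (-0.67, adjusted p 1.1e-04). 5-FU lowered it in Huh1 by 1.66-fold (-0.73, adjusted p 4.7e-05), and in Huh7 the change was 0.10 (95% interval -0.12 to 0.32). The lines differed for both drugs, by 0.77 for DSF (adjusted p 7.7e-04) and 0.83 for 5-FU (adjusted p 4.8e-04), each with the lower change in Huh1. With the spike-in scaling the difference for DSF was not called (0.46, adjusted p 0.096), and the 5-FU changes were 0.10 in Huh1 and 1.09 in Huh7.

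The MTTP window at chr4:99574574-99574823, plus strand, holds the nuclear receptor core on the opposite strand at -50 and a TATA box match on the opposite strand at -227. The window of a second listed start, at chr4:99563880-99564129, holds none of the motifs. The CIDEC and PNPLA2 windows also hold matches (a sterol response type at -101 before 1 of the 2 CIDEC starts, and for PNPLA2 a nuclear receptor core at -239 and a sterol response type at -153). No window is given here for DGAT1, DGAT2 or PNPLA3, which were also called lower with DSF in both lines.
MTTP: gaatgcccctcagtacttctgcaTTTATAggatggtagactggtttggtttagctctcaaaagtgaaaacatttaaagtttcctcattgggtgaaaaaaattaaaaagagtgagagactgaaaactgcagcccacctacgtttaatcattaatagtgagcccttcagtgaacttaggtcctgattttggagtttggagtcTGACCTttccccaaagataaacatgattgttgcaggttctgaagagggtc

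In the direct comparison of the drugs most of the genes were called, and the split by direction depended on the scaling. DSF arrays were called below 5-FU arrays for 6 genes and above for 2 in Huh1, where 20.6% of all probes were called below, 28.7% above and 49.2% either way. In Huh7 7 were below and 1 above, where the shares were 25%, 35.6% and 60.5%. Scaled on the spike-in probes, 7 genes were below and 0 above in Huh1, beside 62.6% and 4.62% of all probes. In Huh7 8 were then below and 0 above, beside 80.9% and 2.76%. The median difference of all probes on that scale was -0.61 in Huh1 and -1.04 in Huh7. The value of DGAT2 in Huh7 (-0.49, adjusted p 0.017) was not called without Huh7 5-FU replicate 2 (-0.28, adjusted p 0.089) or with the slide as a block (-0.46, adjusted p 0.15). PNPLA2 on its brighter probe was the gene above in both lines, by 0.62 (adjusted p 3e-04) and 1.14 (adjusted p 6.2e-07). Its other probe lay the other way, at -0.21 (adjusted p 0.081) in Huh1 and -0.87 (adjusted p 2.6e-06) in Huh7, and the mean of both was not called in Huh7 (0.14, adjusted p 0.13). The difference on the brighter probe was -0.076 and -0.023 with the spike-in scaling. DGAT1 was above in Huh1 (0.40, adjusted p 0.0023), but its dimmer probe was at -0.17, the mean of both was not called (0.12, adjusted p 0.46), and the sign turned with the spike-in scaling (-0.29). GPAM in Huh1 (0.09, 95% interval -0.11 to 0.30) and DGAT1 in Huh7 (0.01, -0.19 to 0.21) were not called. PLIN2 was lower with DSF than with 5-FU by 0.39 on the log2 scale in Huh1 (adjusted p 0.0021) and by 0.50 in Huh7 (adjusted p 2.2e-04).

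Untreated, the lines differed in 7 of the 9 genes, 4 higher and 3 lower in Huh7, where 34.5% of all probes were called higher, 36.2% lower and 70.7% either way. PNPLA3 (1.89), MTTP (1.02), DGAT1 (0.89) and PLIN2 (0.65) were higher in Huh7, and CIDEC (-3.42, 10.7-fold), CIDEB (-1.64, 3.12-fold) and DGAT2 (-0.96) lower, with adjusted p from 3.6e-09 to 7.3e-05. GPAM (0.18, adjusted p 0.11) and the brighter PNPLA2 probe (0.24, adjusted p 0.061) were not called. Quantile normalization called both (0.24, adjusted p 0.032, and 0.39, adjusted p 0.0068). All 9 genes thus differed under it, 6 higher and 3 lower, beside 34.5% and 37.4% of all probes. The spike-in scaling called PNPLA2 (0.31, adjusted p 0.035). The controls of the lines lay on different slides, so line and slide cannot be told apart except through 1 Huh1 DSF array.

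The response to DSF differed between the lines for 4 genes (PNPLA3, PLIN2, CIDEB and MTTP), 1 with the higher change in Huh7 and 3 with the lower, beside 21.1%, 19.2% and, either way, 40.3% of all probes, and the response to 5-FU for 4 (PLIN2, CIDEC, GPAM and MTTP), 3 higher and 1 lower, beside 18.8%, 17.8% and 36.6%. The number for DSF went to 2 with normexp background correction, 1 higher and 1 lower, beside 19.6% and 21.6% of all probes. With the slide as a block it also went to 2, 1 higher and 1 lower, beside 15.6% and 13.5%. PNPLA3 was the closest to the threshold (-0.48, adjusted p 0.044).

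The mean level of the 9 hepatocyte markers was 4.63 to 4.87 over the Huh1 control arrays, 3.97 to 4.04 after DSF and 4.94 to 5.27 after 5-FU, and in Huh7 5.09 to 5.11, 4.69 to 4.73 and 5.46 to 5.60. Single markers did not all follow that mean. With DSF 8 of the 9 were called lower and 0 higher in Huh1, beside 20.3% and 23.9% of all probes. In Huh7 5 were lower and 0 higher, beside 19.4% and 27.3%. With 5-FU the Huh1 arrays gave 4 markers above control and 2 below, beside 22.2% and 26%. The Huh7 arrays gave 5 above and 3 below, beside 27.3% and 29.7%. ALB, the serum albumin gene, had a mean level of 8.62 in Huh1 controls and 8.28 after 5-FU, and of 8.42 and 8.07 in Huh7. AFP, the fetal serum protein used as a tumor marker, had 8.20 in Huh7 controls, 8.41 after DSF and 7.80 after 5-FU. These examples were chosen after their values were seen. The 5 fibroblast or stellate markers had a mean level between -6.00 and -4.45 in the Huh1 groups and in Huh7 between -5.69 and -5.25 in control and DSF arrays, and between -3.68 and -3.06 in Huh7 5-FU, where 4 of the 5 were well above background on all arrays. Fewer cells of a kind and less RNA per cell cannot be told apart in sorted bulk RNA, and the part of either marker list in the changes was not tested.

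Of 60 other genes of the pathway, 56 passed the filter on low values. With DSF 11 of them rose and 19 fell in Huh1, or 19.6% and 33.9%, beside 23.9% and 20.3% of all probes. In Huh7 10 rose and 24 fell, 17.9% and 42.9% beside 27.3% and 19.4%. With 5-FU 16 rose and 15 fell in Huh1, 28.6% and 26.8% beside 22.2% and 26%. In Huh7 17 rose and 21 fell, 30.4% and 37.5% beside 27.3% and 29.7%, the last including AGPAT4, which was well above background on no array of either group. The list medians were -0.08 and -0.15 for DSF and -0.01 and -0.13 for 5-FU, all nearer to the medians of all probes than those of the 9 genes were for DSF. With DSF 5 genes rose in both lines (8.93%), 13 fell in both (23.2%) and 5 went in opposite directions (8.93%), where the shares of all probes were 9.92%, 7.62% and 6.97%. With 5-FU the numbers were 10 (17.9%), 9 (16.1%) and 5 (8.93%), beside 13.2%, 15.9% and 5.19%. The roles below hold 5 to 16 tested genes each, and their counts are to be read against the same shares of all probes for each drug and line.

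**Figure D2:**
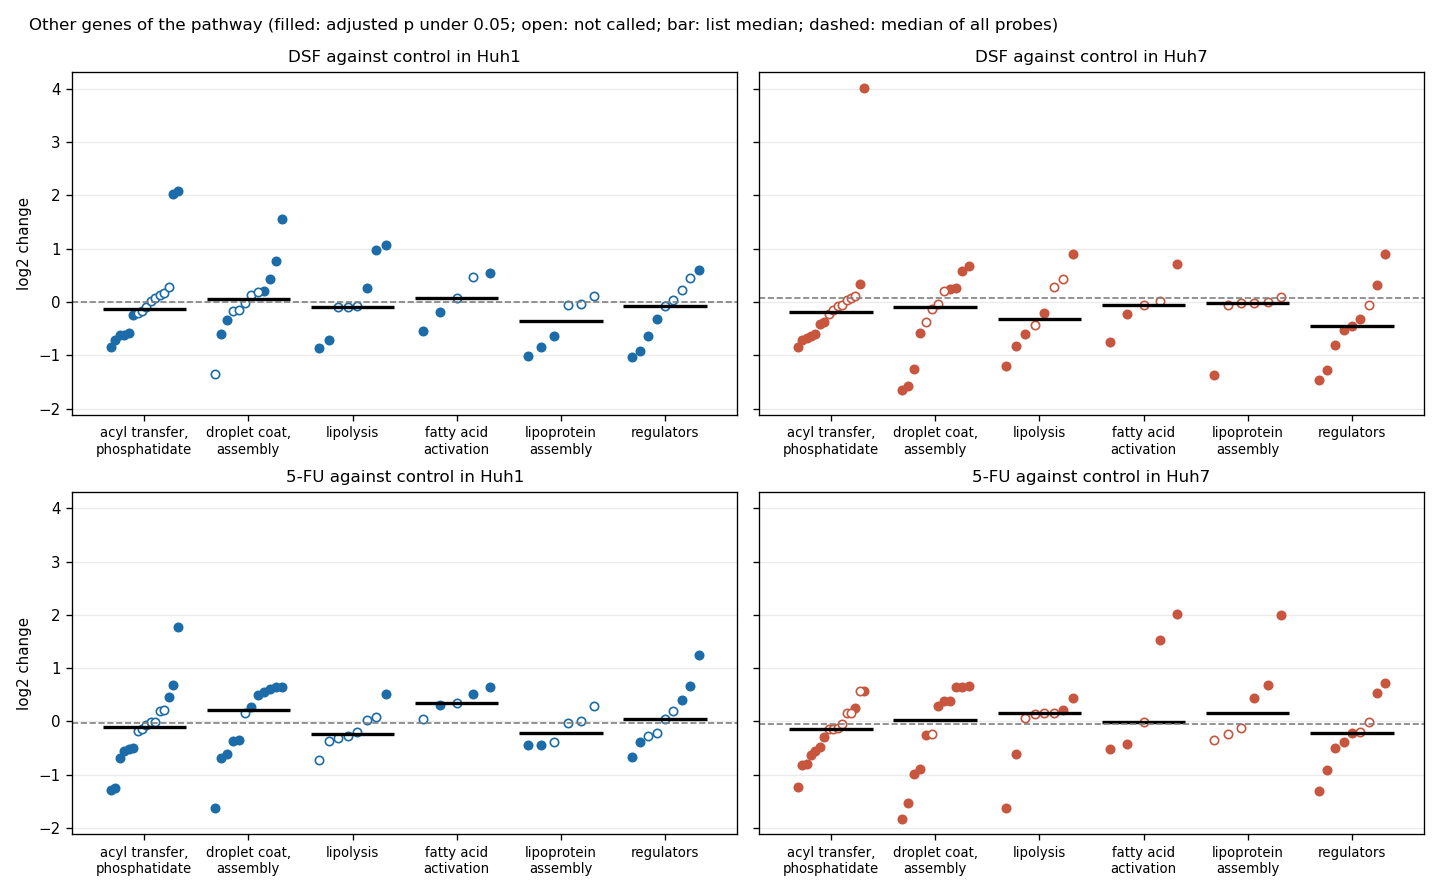
Log2 change against control of the 56 tested pathway genes by role, for each drug and line, with filled points at an adjusted p under 0.05, a bar at the median of each role and a dashed line at the median of all probes. The AGPAT4 point at 4.02 in Huh7 after DSF and the highest acyl transfer points of Huh1 after DSF (2.08) and 5-FU (1.77), which are MOGAT1, are fitted values against controls that were not well above background.

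Of the acyl transfer and phosphatidate genes, DSF moved 2 of 16 up and 6 down in Huh1, beside 23.9% and 20.3% of all probes, and 2 up and 7 down in Huh7, beside 27.3% and 19.4%. AGPAT4, an acylglycerolphosphate acyltransferase, rose by 2.02 in Huh1 (adjusted p 1.1e-05) and at least 11.2-fold in Huh7 (adjusted p 2.1e-08), where it was not well above background on any control array. AGPAT5, of the same family, was called lower with both drugs. With DSF its change was -0.84 in Huh1 (adjusted p 6.7e-05) and -0.38 in Huh7 (adjusted p 0.019). No alternative scaling is given for these DSF values. 5-FU lowered it by 1.26 in Huh1 and 0.63 in Huh7, and the latter turned to 0.36 with the spike-in scaling. MOGAT1, which makes diacylglycerol from monoacylglycerol, rose at least 2.79-fold with DSF in Huh1 (adjusted p 1.5e-05) and fell by 0.84 in Huh7 (adjusted p 0.014), the latter not called with the slide as a block (-1.04, adjusted p 0.059).

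The droplet coat genes did not share a direction, with 4 up and 2 down of 12 after DSF in Huh1 and 4 and 4 in Huh7. PLIN5, the perilipin of oxidative tissues, rose by 1.55 in Huh1 (adjusted p 6.4e-07) and fell by 1.26 in Huh7 (adjusted p 4.6e-06) with DSF. HILPDA, an inhibitor of PNPLA2, rose with 5-FU by 0.49 in Huh1 (adjusted p 3.8e-04) and fell by 1.53 in Huh7 (adjusted p 4.2e-09). PLIN1, the adipocyte perilipin, fell with 5-FU by 1.63 and 1.82, near background in Huh7 5-FU (well above it on 1 of 3 arrays), and neither call held with the spike-in scaling (adjusted p 0.19 and 0.16). The Huh1 call was also lost without control replicate 1 or 5-FU replicate 2 or 3 (-1.50 to -1.34), and the Huh7 call without 5-FU replicate 3 (-1.19). With DSF the mean level of PLIN1 went from -3.92 to -5.27 in Huh1, which was not called. In Huh7 it went from -4.69 to -6.34, which was called lower, with 1 of 3 DSF arrays well above background. No alternative scaling is given for these DSF values. With 5-FU 6 coat genes rose and 5 fell in each line, beside 22.2% and 26% of all probes in Huh1 and 27.3% and 29.7% in Huh7.

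Lipolysis genes gave 3 up and 2 down of 8 with DSF in Huh1, 1 and 4 in Huh7, 1 and 0 with 5-FU in Huh1 and 2 and 2 in Huh7. ABHD5, the activator protein of PNPLA2, was singled out after its values were seen. It rose with DSF by 1.06 in Huh1 (SE 0.087, adjusted p 3.9e-07) and 0.90 in Huh7 (adjusted p 1.8e-06). It was not called with 5-FU (0.02 and 0.17). PNPLA8, a phospholipase of the patatin-like family, rose by 0.97 with DSF in Huh1 (adjusted p 9.9e-08), and in Huh7 it fell by 0.20 (adjusted p 0.030), a call lost under median or spike-in scaling, with the slide as a block (-0.074), and without Huh7 control replicate 2 or 3 or Huh7 DSF replicate 2 or 3 (-0.20 to -0.16).

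Of the 5 fatty acid activation genes, ACSL5, an acyl-CoA synthetase, rose with 5-FU by 0.65 in Huh1 (adjusted p 0.0046) and 2.01 in Huh7 (adjusted p 1.3e-07), while the list gave 3 up and 0 down in Huh1 and 2 and 2 in Huh7. The lipoprotein assembly genes had no member up with DSF, with 3 of 6 down in Huh1 and 1 in Huh7. TM6SF2, a protein of lipoprotein lipidation, fell by 1.02 (adjusted p 6e-05) and 1.37 (adjusted p 4.6e-06) with DSF, in the same direction as MTTP. APOB, the structural protein of these particles, fell with 5-FU by 0.45 in Huh1 (adjusted p 0.018) and rose by 0.69 in Huh7 (adjusted p 7.5e-04). The Huh1 value turned to 0.38 with the spike-in scaling and was not called without Huh1 control replicate 3 or Huh1 5-FU replicate 2 or 3 (-0.38 to -0.34).

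Among the 9 regulators, DSF moved 1 up and 4 down in Huh1 and 2 up and 6 down in Huh7. PPARA, the nuclear receptor that drives fatty acid oxidation, fell by 1.03 (adjusted p 1.2e-06) and 1.47 (adjusted p 5e-08), and MLXIPL, the carbohydrate response factor that drives lipogenesis, by 0.91 (adjusted p 1.6e-04) and 1.28 (adjusted p 9.3e-06). With 5-FU the regulators gave 3 up and 2 down in Huh1 and 2 and 5 in Huh7. PPARG, the receptor of adipocyte differentiation, rose by 0.67 in Huh1 (adjusted p 4.5e-06) and fell by 0.38 in Huh7 (adjusted p 3.9e-04), which turned to 0.61 with the spike-in scaling. PPARGC1A, a coactivator of oxidative genes, was dim (well above background on 2 of 3 Huh1 control arrays) and rose by 1.24 and 0.71 with 5-FU, which normexp correction brought to 0.19 and -0.040, neither called. Its Huh7 call was also lost without control replicate 2 or 5-FU replicate 1 or 3 (0.43 to 0.71).

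For the 3 genes with the widest range of group means, the named genes with the most similar level over the 18 arrays were listed as a description, since the arrays share lines and treatments. CIDEB was closest to G6PC1 (Pearson r 0.987), ACACB (0.972) and CDHR5 (0.970). CIDEC was closest to CASP8 (0.994), UGT2B15 (0.985) and CIDECP1 (0.985), a pseudogene copy whose probe may share sequence with CIDEC. PNPLA3 (range 3.08) was closest to ACAT2 (0.990), PGPEP1 (0.988) and SLC25A42 (0.983).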

How the data were processed

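EpCAM+ cells of Huh1 and Huh7 were hybridised to 18 one-color arrays. The authors deposited Feature Extraction output (version 10.7.1.1 per the labels) with linear, background-subtracted spot intensity, and a table of normalized intensity from GeneSpring, each array scaled to its 75th percentile. Its values differed from the spot files by 1 constant per array, within 0.05 log2 for 100% of probes.

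The log2 of the processed signal was averaged over unflagged spots, and the array's 75th percentile subtracted. Of 42405 probes 78 were left out for want of an unflagged spot on an array (316 to 447 outlier spots per array, 0 saturated). The test took the 29894 probes that, in 1 group or more, every array read well above background. Of 27134 probes with a RefSeq accession 25771 were named, from a table of another build than the array design, so no probe coordinates are given. The number of arrays limits the precision.

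All arrays entered 1 limma fit of 6 group means (R 4.3.3, limma 3.58.1). Tables and figures were made in Python 3.11.15 (numpy 2.4.6, pandas 2.3.3, matplotlib 3.10.9). The fit was tested on simulated data. The members, pathway lists and naming rule were chosen with earlier results of these data known. Named were all members, per drug up to 4 pathway genes called alike in both lines with the largest mean change and up to 3 called in opposite directions with the largest difference, the 3 nearest genes of 3 members, and ABHD5. Alternatives changed background correction, scaling, filter, value table, block, arrays in the fit and probes per gene. Each array was also left out in turn.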

Additional observations from a re-analysis of the deposited data

Results flagged for a closer look

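The following changes differed between the lines by limma's test of the difference (change in Huh7 minus change in Huh1). Groups of 3 arrays allow no outlier test.

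For PLIN2 the rise was smaller in Huh7 with DSF (-0.78) and with 5-FU (-0.67), in both cases with all arrays of both lines above their controls, and the 5-FU difference was not called with the spike-in scaling (-0.51, adjusted p 0.11). MTTP fell less in Huh7 with DSF (0.77), and with 5-FU it was called lower in Huh1 and not called in Huh7 (difference 0.83). GPAM fell less in Huh7 with 5-FU (0.60).

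CIDEB fell more in Huh7 with DSF (-1.11), a difference that was lost with normexp correction and with the slide as a block. For CIDEC the rise with 5-FU was larger in Huh7, by 1.43 on the brighter probe and 1.01 on the other. The second value was lost without Huh1 5-FU replicate 1, Huh7 control replicate 2 or Huh7 5-FU replicate 2 (0.88 to 0.98).

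The dimmer PNPLA2 probe differed between the lines by -1.24 with DSF, rising in Huh1 and falling in Huh7, and by -0.59 with 5-FU, the latter not called with the spike-in scaling (-0.43, adjusted p 0.22). The brighter probe of the same gene was called for neither difference, although its DSF difference (0.29) was called with median scaling (0.44, adjusted p 0.016) and without Huh7 DSF replicate 1 (0.42, adjusted p 0.017). PNPLA3 fell more in Huh7 with DSF (-0.48). That difference was not called under median scaling (-0.32, adjusted p 0.18), with normexp correction (-0.36, adjusted p 0.13), without a filter on dim probes (adjusted p 0.068), with the slide as a block (adjusted p 0.14), or without any 1 of the 12 arrays concerned other than Huh1 control replicate 3, Huh1 DSF replicate 3 and Huh7 DSF replicate 1 (-0.49 to -0.43).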

How the results depend on the processing

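Of 2459 values computed for 138 results, 2305 kept direction and side of the threshold, 79 lost a call, 26 gained one and 49 changed sign, 22 of them under the spike-in scaling. The counts of called members, taken in either direction, stayed within 1.5 times under all alternatives run except the DSF difference between lines. That count was 2 with normexp correction and 2 with the slide as a block in place of 4, beside the shares of all probes given above. The split by direction was less stable. With the spike-in scaling, 5-FU in Huh7 went from 4 higher and 3 lower to 8 and 0, and in Huh1 from 4 and 4 to 5 and 1. Over the arrays left out in turn the counts ranged from 7 to 8 and 8 to 9 for DSF, 7 to 8 and 6 to 7 for 5-FU, and 3 to 5 and 4 to 5 for the differences between lines. Shares of all probes are not given for these fits. In the main fit they were 44.2% and 46.7% for DSF and 48.2% and 57.1% for 5-FU. For the differences between lines they were 40.3% and 36.6%. Changes of sign under the spike-in scaling, beside those given above for GPAM, DGAT1, DGAT2, AGPAT5, APOB, PPARG, MTTP and PNPLA2, were these. Against 5-FU, DSF gave -0.29 and -1.15 for DGAT1, -0.076 and -0.023 for PNPLA2 and -0.60 for GPAM in Huh1. DSF gave 0.039 for PNPLA2 in Huh1, and its difference between lines was -0.020 for PNPLA2, -0.10 for the dimmer DGAT1 probe and -0.057 for the dimmer CIDEC probe. The dimmer DGAT1 probe gave 0.61 and 0.94 after 5-FU, and the 5-FU difference of PNPLA3 was 0.0027. The 5-FU values were 0.050 and 0.45 for DGAT1, 0.62 for DGAT2 in Huh7, 0.11 and 0.042 for PNPLA2, 0.47 for GPAM in Huh7, 0.10 for MTTP in Huh1, 0.36 for AGPAT5 in Huh7, 0.38 for APOB in Huh1 and 0.61 for PPARG in Huh7. Median scaling gave -0.040 for DGAT1 (DSF against 5-FU, Huh7), -0.057 for GPAM (the same, Huh1) and 0.13 for GPAM (DSF difference). Quantile normalization gave -0.015 for DGAT1 (DSF against 5-FU, Huh7), and normexp 0.051 for GPAM (DSF difference) and -0.040 for PPARGC1A (5-FU, Huh7). For PNPLA2 in Huh7 the DSF change was -0.064 both with slide as a block and with only those DSF arrays that shared the slide of the controls. The mean of a gene's probes gave -0.060 for DGAT1 (DSF against 5-FU, Huh7), 0.026 for DGAT1 (DSF difference), and for PNPLA2 0.27 and -0.21 (DSF), 0.067 (5-FU, Huh1), -0.48 (DSF difference) and -0.072 (Huh7 against Huh1 control). The cause of these changes was not tested.

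Leaving out 1 array changed the sign of values near 0. The ranges were -0.056 to 0.12 for DGAT1 (DSF against 5-FU, Huh7), and for its dimmer probe -0.37 to 0.0043 (5-FU, Huh1), -0.23 to 0.11 (5-FU, Huh7), -0.28 to 0.051 (DSF against 5-FU, Huh7), -0.0082 to 0.36 (DSF difference) and -0.051 to 0.32 (5-FU difference). They were -0.10 to 0.16 for DGAT2 (5-FU, Huh1), -0.32 to 0.0026 for PNPLA3 (5-FU difference), -0.13 to 0.46 for the dimmer CIDEC probe and -0.072 to 0.037 for GPAM (DSF difference). Same-numbered arrays did not deviate together (r from -0.093 to 0.009 over 12 pairs), so the numbers were not used as pairs. No array correlated best with the same-numbered array in both other groups of its line at once. With the replicate number as a block, the member counts were 7 and 8 for DSF and 8 and 7 for 5-FU, and the share of all probes is not given for this fit. The call of PNPLA3 for the DSF difference was the only one lost (adjusted p 0.065). The normexp correction used median spot signals, chosen after seeing the data because the spot files list no mean signal. The version planned on mean signal was not run. The restriction to the slide of the controls was also added afterwards.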
